A study of Danio rerio with 8 samples.

Results

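The comparison set the 4 RNA sequencing libraries that carry replicate numbers 1 and 2 against the 4 that carry numbers 3 and 4, in a study of cells sorted from zebrafish embryos at 3 days post fertilisation (dpf). The numbers were read from the sample titles, which do not say what they stand for. All 8 of the study's 8 libraries took part, and each side held 2 libraries from ddx21 mutants and 2 from siblings. Every embryo carried both Tg(fli1a:nEGFP), a nuclear green label of endothelium, and Tg(5.2lyve1b:DsRed), a red label of veins and lymphatics. The double-positive cells were collected as venous and lymphatic endothelium. Neither the ddx21 allele, the genotype of the siblings, nor the number of embryos behind a library is given in the sources used here. Ddx21 is an RNA helicase of the nucleolus, and the series title places it between ribosome production and p53 signalling in lymphatic growth driven by Vegfc.

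The outer skin of a zebrafish larva is made of a surface layer, the periderm, over a basal layer that rests on a basement membrane. Both layers are rich in keratins, and basal cells are held to the membrane by hemidesmosomes. Endothelial cells line the vessels, and arteries, veins and lymphatics differ in the transcription factors and receptors they carry. Notch signalling marks arteries, and bone morphogenetic protein (BMP) signalling through the receptor ALK1 acts in vessels that carry flow. Transcripts of any cells collected together appear in one bulk library. In such a library fewer cells of a type and less RNA per cell cannot be told apart.

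The side of a library was proposed with its epidermal and endothelial transcripts already known, so the values of those genes describe the sides and test nothing. Expression is given as CPM, the read count scaled to library size with TMM factors, which corrects for depth and composition but not for gene length. The libraries held 38459219 to 51173007 counted reads, and 18051 to 25329 genes had at least 1 read. Mutant 1, mutant 4 and sibling 4 had the fewest genes (19366, 18051 and 18064), against 21623 or more in the other 5 libraries. The first principal component of 6414 genes with a mean of at least 20 CPM held 50.4% of the variance. On it all 4 libraries of numbers 1 and 2 lay below 0 (-49.2 to -19.6). All 4 of numbers 3 and 4 lay above it (4.4 to 57.8), with mutant 3 the nearest to 0. The first component computed separately over all 22210 tested genes held 29.5%, with mutant 3 at 2.6. Symbols are spelled as in the gene name table, many in human style. Where duplicates share a symbol, the Ensembl identifier follows.

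The keratin krt4 (ENSDARG00000017624), a major keratin of the surface epidermis, was abundant in every library and separated the sides. It measured 54981 CPM in mutant 1, 18792 in sibling 1, 35277 in mutant 2 and 26339 in sibling 2, against 7690 in mutant 3, 5091 in sibling 3, 3103 in mutant 4 and 1592 in sibling 4. The lowest library of numbers 1 and 2 thus lay above the highest of numbers 3 and 4. Its share of all reads ran from 2.06% to 5.11% on the first side and from 0.146% to 0.821% on the second. The epithelial adhesion gene epcam measured 1869, 827, 2177 and 1269 CPM in the same order of libraries, against 524, 308, 107 and 62.1 CPM. Its groups did not overlap either, and within numbers 3 and 4 both libraries of number 3 lay above both of number 4 for krt4 and for epcam. In each of the 4 numbers krt4 and epcam were higher in the mutant than in the sibling, by 1.34 to 2.93 times for krt4 and by 1.70 to 2.26 times for epcam. Neither passed between mutants and siblings in the fit given below. The log2 differences were 0.85 for krt4 (SE 0.38, edgeR adjusted p = 0.949) and 0.86 for epcam (SE 0.55).

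The endothelial markers ran the other way. The gene cdh5, which encodes the cadherin of endothelial junctions, measured 161 CPM in mutant 1, 255 in sibling 1, 362 in mutant 2 and 193 in sibling 2. In mutant 3, sibling 3, mutant 4 and sibling 4 it measured 415, 554, 604 and 598 CPM. The VEGF receptor gene kdrl measured 301, 291, 260 and 179 CPM on the first side and 360, 459, 452 and 548 CPM on the second. For both genes every library of numbers 3 and 4 lay above every library of numbers 1 and 2, by less than krt4 and epcam separated the sides. In the fit across all genes given below, krt4 passed the threshold, and cdh5 (edgeR adjusted p = 0.0503), epcam (0.061) and kdrl (0.0878) did not. Means were 243 ± 88.4 against 543 ± 87.7 CPM for cdh5 and 258 ± 55.5 against 455 ± 76.8 CPM for kdrl (SD, n = 4 each). The mutated gene DDX21 (ENSDARG00000063626) was present in all 8 libraries, at 233, 242, 267 and 359 CPM on the first side and 170, 339, 218 and 302 on the second. It was lower in the mutant of each number, by little in number 1, and did not pass between mutants and siblings (log2 -0.495, SE 0.189, edgeR adjusted p = 0.916). Its sides overlapped, and its log2 difference between the sides was 0.14 (SE 0.19, edgeR adjusted p = 0.892).

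**Figure D1:**
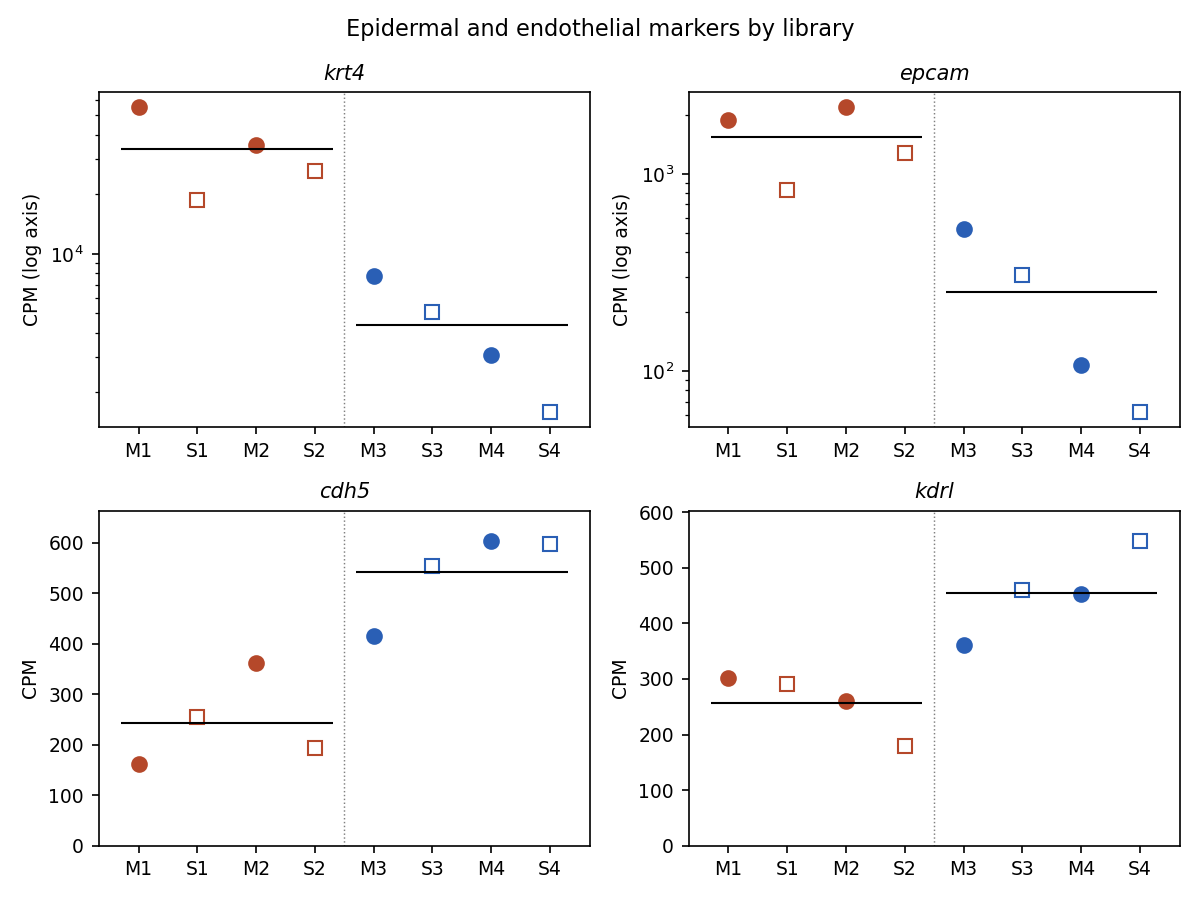
Level in CPM of 2 epidermal and 2 endothelial markers in each library, with M for mutant (filled circles), S for sibling (open squares) and the replicate number; lines are the means of 4 libraries. The axes of krt4 and epcam are logarithmic and those of cdh5 and kdrl start at 0. For all 4 genes the sides do not overlap.

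Across genes the sides were compared with edgeR's quasi-likelihood test with genotype as a covariate, and p-values were adjusted by the Benjamini-Hochberg method over the 22210 genes tested, with a threshold of 0.05. It called 520 genes (2.34%). Of these 245 (1.1%) were higher in numbers 1 and 2 and 275 (1.24%) were higher in numbers 3 and 4. Log2 differences are given as numbers 1 and 2 over numbers 3 and 4, so a negative value means a higher level in 3 and 4. The 245 genes differed by a median of 2.33 on the log2 scale, and 154 of them by more than 4-fold. The 275 genes differed by a median of 1.13 in size, with 5 beyond 4-fold, and had the higher level, at a median of 167 CPM over all libraries against 54.9. The median over all tested genes was 0.11, and 55.1% lay above 0. In 235 of the 245 and 268 of the 275 the 4 libraries of one side did not overlap the 4 of the other. Over all tested genes 5.91% were without overlap and higher in 1 and 2, and 4.69% were without overlap and lower. Genes called on this split of the libraries tend to separate on it, so the lack of overlap gives the calls no further support.

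These p-values treat the 4 libraries of a side as separate, yet each side holds only 2 replicate numbers and nothing in the labels says whether libraries of one number share a sort or a clutch. With the counts summed per number, 2 sums against 2, no gene passed (edgeR, smallest adjusted p = 0.11, with 1362 genes higher and 1096 lower at an unadjusted p under 0.05). DESeq2 called 952 higher and 631 lower. Without mutant 1, mutant 4 and sibling 4 edgeR called 244 higher and 80 lower, of which 137 and 57 were among the genes above, and without sibling 2 alone it called 90 and 42. Each of the 8 libraries lowered both counts when left out. After sibling 2, the count of higher genes fell most without mutant 1 (139) and mutant 2 (161). The count of lower genes was 128 without mutant 1, 94 without sibling 1, 136 without sibling 3, 129 without mutant 4, 145 without sibling 4, 217 without mutant 3 and 254 without mutant 2. In the mutants alone and in the siblings alone, at 2 libraries against 2, no gene passed in edgeR (838 higher and 583 lower, and 1689 and 897, at an unadjusted p under 0.05).

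**Figure D2:**
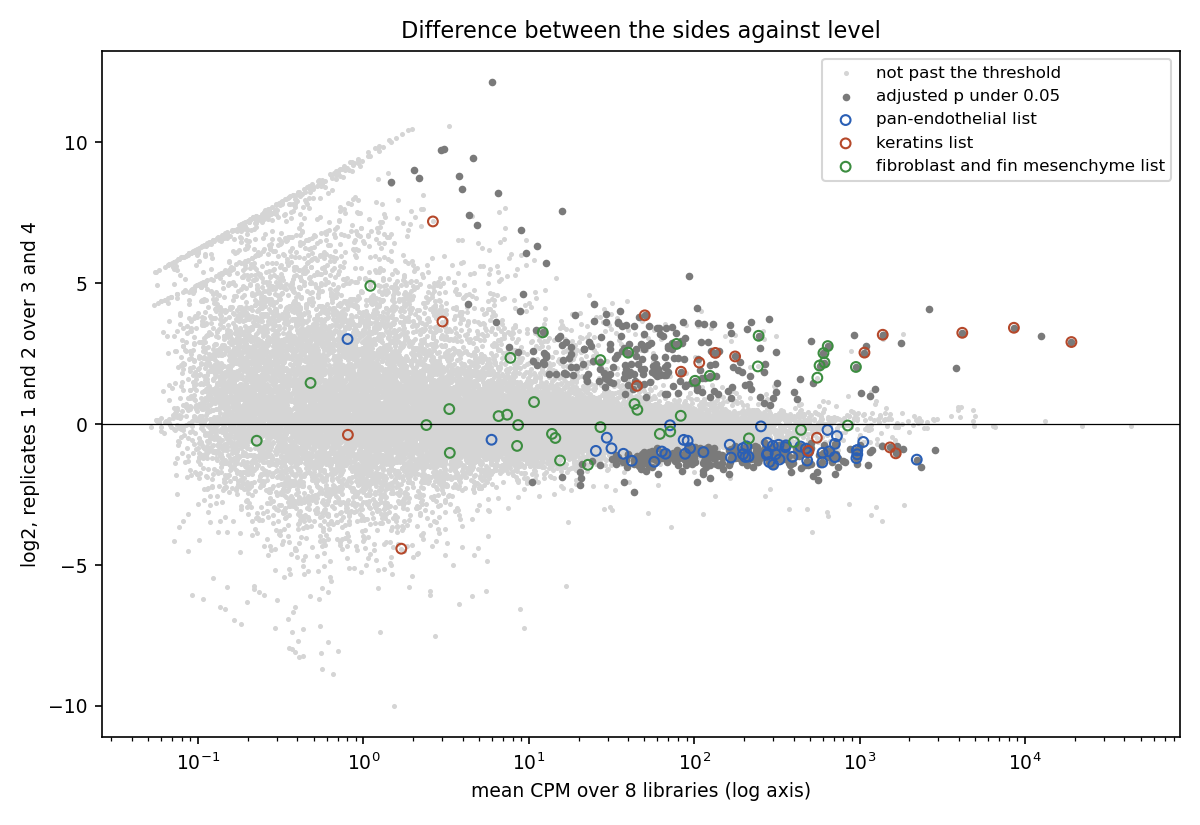
Each of the 22210 tested genes by its mean CPM over the 8 libraries (log axis) and its log2 difference, numbers 1 and 2 over 3 and 4; dark points passed the edgeR threshold and rings mark 3 gene lists. The endothelial ring sits in a narrow band near -1, while members of the keratin list and of the fibroblast and fin mesenchyme list reach 3 and more.

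Most keratins followed krt4. Of 19 keratin genes tested, a list drawn up after values had been seen, 9 passed as higher in numbers 1 and 2 and 2 as higher in numbers 3 and 4, with a median log2 difference of 2.4. Beside this count and those of the lists below stand the shares over all tested genes, 1.1% higher and 1.24% lower. Among the 6414 genes with a mean of at least 20 CPM they were 3.06% and 4.26%. The summed keratin level was 36830 to 91670 CPM on the first side and 8609 to 17420 CPM on the second. After krt4, krt5 had the highest level, at 22580, 7955, 15848 and 16501 CPM in mutant 1, sibling 1, mutant 2 and sibling 2, against 2321, 2201, 776 and 462 CPM in mutant 3, sibling 3, mutant 4 and sibling 4 (log2 3.42, SE 0.55). The keratins krt1-19d (log2 3.86), krt1-19e (3.24), krt91 (3.17), krt15 (2.54), krt97 (2.52), cyt1 (2.4) and cyt1l (1.86) were likewise without overlap. In contrast krt8 and krt18a.1, which pair in simple epithelia, were higher in numbers 3 and 4. krt8 measured 816, 1178, 1225 and 1176 CPM in numbers 1 and 2 and 1605, 2131, 1854 and 2245 CPM in numbers 3 and 4 (log2 -0.83, SE 0.16). krt18a.1 measured 880, 1160, 1255 and 1041 against 2008, 2370, 2246 and 2289 CPM (log2 -1.04, SE 0.15). Neither overlapped between the sides. Without mutant 1, mutant 4 and sibling 4 the list counted 7 higher and none lower, so neither of these 2 passed.

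Of 57 periderm and epidermis genes tested, 17 passed as higher in numbers 1 and 2 and 3 as lower, with a median log2 difference of 1.87. The list shares 13 members with the keratin list, and 10 of the 11 keratin calls stand on it. The counts and summed levels of the 2 lists are therefore not separate. Their summed level was 41270 to 100300 CPM against 10060 to 19890 CPM. Cell contact genes were among them. The epithelial cadherin gene cdh1 measured 481, 167, 384 and 193 CPM in numbers 1 and 2 and 46.3, 36.1, 22.1 and 16 CPM in numbers 3 and 4 (log2 3.23, SE 0.35). The junction gene f11r.1 differed by 1.96 and one MYH9 gene, a non-muscle myosin heavy chain (ENSDARG00000063295), by 2.15. The surface antigen gene lye, of the Ly6 family, stood at 71.8 to 363 CPM against 2.46 to 20.7 (log2 4.13, SE 0.71). One plakophilin 3 gene of the desmosome went against the list. PKP3 (ENSDARG00000079438) measured 202, 150, 177 and 179 CPM in numbers 1 and 2 and 261, 361, 498 and 477 CPM in numbers 3 and 4 (log2 -1.17, SE 0.22). The other 2 lower members were krt8 and krt18a.1.

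Most listed genes of the basal layer and its basement membrane were higher in numbers 1 and 2 as well. Of 25 basal epidermis genes 7 passed as higher in numbers 1 and 2 and none as lower (median 2.11), and the summed level was 2815 to 5717 CPM against 1875 to 2117 CPM. Not all members rose. Of the 25, 20 lay above 0, 13 were without overlap and higher, and 3 were without overlap and lower. DESeq2 called 14 of them as higher and 2 as lower. TP63, the transcription factor of basal epidermal identity, measured 337, 228, 310 and 334 CPM in numbers 1 and 2 and 37.5, 34.2, 31.2 and 5.81 CPM in numbers 3 and 4 (log2 3.52, SE 0.47). Sibling 4 had the lowest value by far. The hemidesmosome integrin genes ITGB4 and itga6b differed by 3.46 (SE 0.43) and 1.83 (SE 0.20), and the hemidesmosome collagen gene col17a1b by 3.40 (SE 0.53). The laminin chain gene LAMA5 stood at 174, 99.7, 198 and 125 CPM against 30.9, 12.7, 18.2 and 19.4 CPM (log2 2.87, SE 0.24). Of 28 basement membrane and hemidesmosome genes, a list drawn up after values had been seen and sharing 12 members with the basal list, 11 passed as higher and none as lower (median 2.73). The collagen IV chain gene col4a5 had the largest difference among these 11, at 154, 178, 279 and 116 CPM against 10.7, 1.72, 1.76 and 5.21 CPM (log2 5.26, SE 0.62). EGFL6, a secreted matrix protein gene, stood at 268 to 879 CPM against 5.47 to 126 CPM (log2 3.71, SE 0.57), and col18a1a, of collagen XVIII, at 231 to 723 against 17.7 to 123 CPM (log2 2.70, SE 0.38).

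Fibrillar collagens and other connective tissue genes were also higher in numbers 1 and 2. Of 40 fibroblast and fin mesenchyme genes 11 passed as higher and none as lower, while the median of the list was only 0.52. The list's summed level was 7131 to 13530 CPM against 3638 to 4810 CPM. COL1A1 (ENSDARG00000035809), a collagen I chain gene, measured 1701, 750, 1170 and 850 CPM in numbers 1 and 2 and 283, 131, 168 and 89 CPM in numbers 3 and 4 (log2 2.77, SE 0.23, edgeR adjusted p = 0.0016). COL1A2 (log2 2.52, SE 0.26), both POSTN genes, which encode periostin (ENSDARG00000104267, 3.13; ENSDARG00000043806, 2.08), and a COL12A1 gene (ENSDARG00000078322, 2.84) showed the same pattern without overlap. SPARC, a collagen-binding matrix protein gene, stood at 966 to 2061 CPM against 210 to 520 CPM (log2 2.03, SE 0.27, edgeR adjusted p = 0.00772). Not every gene of the list did so. The fibroblast receptor genes PDGFRA and PDGFRB and the matrix gene DCN, named after their values were seen, had log2 differences of 0.28, 0.33 and 0.51, at means of at most 53.7 CPM on the higher side, and none passed. Of 23 cartilage and notochord genes 3 passed, all higher in numbers 1 and 2 and all encoding matrix proteins, namely COL11A1 (log2 3.62), COL2A1 (ENSDARG00000011407, 3.06) and cnmd (2.76).

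The gene with the second highest level among those higher in numbers 1 and 2 was apoeb, an apolipoprotein E gene. It measured 36065, 11141, 23940 and 19388 CPM in mutant 1, sibling 1, mutant 2 and sibling 2 and 4717, 2791, 1485 and 1032 CPM in the others (log2 3.14, SE 0.44, edgeR adjusted p = 0.00886). The order of the libraries was that of krt4. The gene stood on a list of 31 macrophage genes, of which it was the only 1 called, near the share of 2.34% over all tested genes. The macrophage regulator SPI1 measured 0, 1.54, 1.19 and 1.67 CPM in numbers 1 and 2 and at most 0.0572 CPM in numbers 3 and 4. The complement gene c1qb measured 0.528, 0, 0 and 1.38 CPM against 0 in numbers 3 and 4. CD63 went the other way (log2 -0.53, SE 0.14, edgeR adjusted p = 0.112). Of the 31 genes 13 lay above 0, with a median of -0.165. Which cells the apoeb transcripts came from was not tested. A prostaglandin D synthase gene, ptgdsb.1, stood at 3152 to 6300 CPM against 97.6 to 534 CPM (log2 4.08, SE 0.50, edgeR adjusted p = 0.00589), and pfn1, a profilin gene, at 4056 to 7516 against 750 to 2860 CPM (log2 1.98, SE 0.37). WNT9B, a Wnt ligand gene, measured 50.6, 15.4, 27.3 and 32.7 CPM in numbers 1 and 2 against 0.935, 0.0409, 0.126 and 0 CPM in numbers 3 and 4. Since sibling 4 was at 0 no fold is given. Also among the 15 largest were FAT2, an atypical cadherin gene (log2 5.72), CYP26C1, which encodes an enzyme that breaks down retinoic acid (4.0), rhoub, a small GTPase gene (3.79), col14a1b of collagen XIV (3.67) and gpa33a (3.6).

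**Figure D3:**
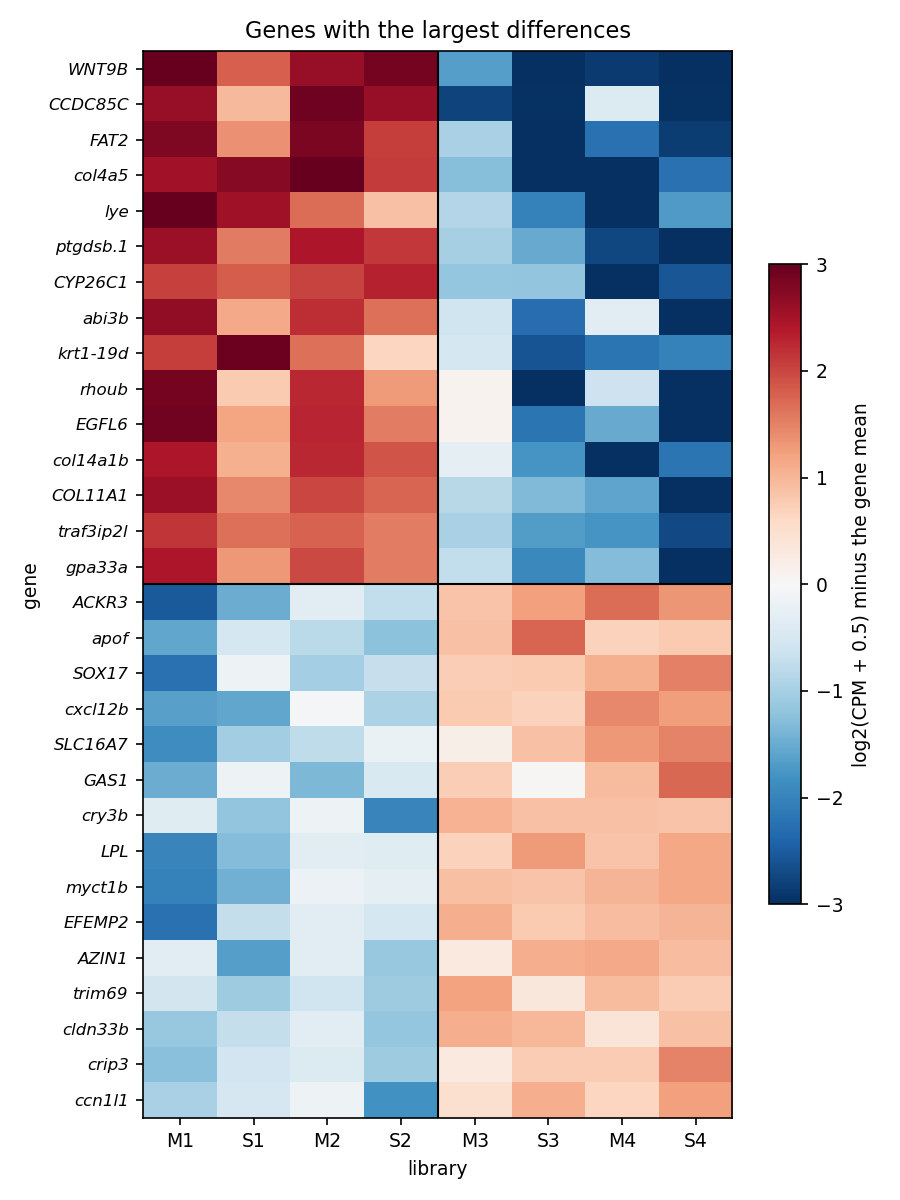
The 15 called genes with the largest differences in each direction, with no overlap and at least 20 CPM on the higher side. Colour is log2(CPM + 0.5) minus the gene's mean, cut at -3 and 3, with M for mutant, S for sibling and the replicate number. For rhoub and EGFL6 mutant 3 is the highest of the libraries of numbers 3 and 4.

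Endothelial transcripts were among those higher in numbers 3 and 4. Of 53 pan-endothelial genes tested, 29 passed as higher in numbers 3 and 4 and none in the other direction, with a median log2 difference of -0.97, and 52 of the 53 lay below 0. Their summed level was 11160 to 15170 CPM in numbers 1 and 2 and 23540 to 27820 CPM in numbers 3 and 4. Without mutant 1, mutant 4 and sibling 4 the count was 6 of 53 and the median -0.80. With the replicate number as a random replicate block in limma-voom 33 of the 53 passed, which changed the method as well as the block. Over all genes limma-voom called 332 as lower without the block and 293 with it, against 275 in edgeR. The fitted correlation of same-numbered libraries was 0.065. With counts summed per number none passed. The one gene above 0 was a CAVIN1 gene (ENSDARG00000076411) with means of 0.958 and 0.647 CPM and several libraries at 0. A pair of plasmalemma vesicle genes, which build the diaphragm of endothelial pores, were among the 29. plvapb measured 1096, 1283, 1659 and 1189 CPM in numbers 1 and 2 and 3458, 3034, 3161 and 2877 CPM in numbers 3 and 4 (log2 -1.26, SE 0.16). plvapa stood at 109 to 197 against 377 to 543 CPM (log2 -1.44, SE 0.20). SOX7, of the SoxF factors that act in vessel formation, measured 278, 308, 395 and 349 against 668, 900, 868 and 1001 CPM (log2 -1.36, SE 0.18). The adhesion receptor gene ADGRL4 (log2 -1.17, SE 0.15) and ushbp1 (log2 -1.07, SE 0.15) were also without overlap.

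Arterial genes had a median close to that of the pan-endothelial ones. Of 22 tested, 6 passed as higher in numbers 3 and 4 and none as lower, with a median of -0.92 and a summed level of 1225 to 1645 CPM against 2503 to 2757 CPM. The VEGF receptor gene flt1 measured 190, 232, 214 and 190 CPM in numbers 1 and 2 and 395, 413, 462 and 488 CPM in numbers 3 and 4 (log2 -1.09, SE 0.15, edgeR adjusted p = 0.00802). SOX17, a further SoxF factor, stood at 5.64 to 25.7 against 47.5 to 81.6 CPM (log2 -2.04, SE 0.36). Of 18 genes of Notch signalling in endothelium, a list drawn up after values had been seen and sharing 10 members with the arterial one, 7 passed as higher in numbers 3 and 4 and none as lower (median -0.88). The fringe gene mfng, whose enzyme adds sugars to Notch receptors, measured 82.2, 104, 105 and 81.8 against 256, 230, 247 and 217 CPM (log2 -1.35, SE 0.16, edgeR adjusted p = 0.00446). The receptor gene NOTCH1 (ENSDARG00000103554, log2 -1.11), the ephrin gene EFNB2 (ENSDARG00000074050, -0.96), LFNG (-1.14) and the Notch target HEY2 (-1.15) also passed. With the 3 libraries of the fewest genes left out the counts were 1 of 22 and 2 of 18.

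Lists of markers of the cell types named by the gate had smaller median differences. Of 22 lymphatic genes 2 passed as higher in numbers 3 and 4 and none as lower, with a median of -0.26, and of 14 venous genes 1 passed, with a median of -0.20. Over all tested genes 1.24% passed in that direction, and 4.26% of those with a mean of at least 20 CPM. At that level 2 of 17 lymphatic and 1 of 13 venous genes passed. The summed level of the lymphatic list was 3153 to 3601 CPM against 4350 to 5401 CPM, and that of the venous list 1580 to 1931 CPM against 2108 to 2535 CPM, without overlap for either. The reporter's own gene lyve1b, a hyaluronan receptor gene, measured 444, 652, 477 and 645 CPM in numbers 1 and 2 and 576, 770, 722 and 810 CPM in numbers 3 and 4 (log2 -0.39, SE 0.14, edgeR adjusted p = 0.259). The sides overlapped, and siblings 1 and 2 lay above mutant 3. FLT4, the Vegfc receptor gene, measured 210, 237, 195 and 280 against 232, 359, 348 and 349 CPM (log2 -0.48, SE 0.17, edgeR adjusted p = 0.23). A larger difference was that of lyve1a, also on the lymphatic list, with means of 505 and 979 CPM. Its sides overlapped and it did not pass (log2 -0.925, SE 0.298, edgeR adjusted p = 0.197). The scavenger receptor genes stab2 and MRC1 had log2 differences above 0, at 0.07 (SE 0.19) and 0.43 (SE 0.23), and did not pass, and the value of stab2 was below 0 in the siblings alone. Those that passed were a TSPAN18 gene (ENSDARG00000015015, log2 -0.81), an NR2F1 gene (ENSDARG00000052695, -1.10) and, on the venous list, the chemokine scavenger gene ACKR3 (ENSDARG00000062478). The last measured 4.66, 10.1, 23.3 and 17.3 CPM in numbers 1 and 2 and 53.6, 69.5, 94.1 and 74 CPM in numbers 3 and 4 (log2 -2.39, SE 0.45, edgeR adjusted p = 0.0254). Another ACKR3 gene on the venous list (ENSDARG00000058179) had a higher level, at means of 254 and 418 CPM. Its sides overlapped and it did not pass (log2 -0.69, SE 0.196, edgeR adjusted p = 0.134). The venous ephrin receptor genes ephb4a (log2 -0.71, edgeR adjusted p = 0.0567) and ephb4b (-0.85, adjusted p = 0.0671) were without overlap and did not pass. The same held for tmem88a of the venous list (log2 -0.78, edgeR adjusted p = 0.119). Whether the lymphatic and venous lists differ from the pan-endothelial list was not tested.

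Most listed genes of BMP signalling had higher levels in numbers 3 and 4 too. Of 26 genes of BMP and ALK1 signalling, a list drawn up after values had been seen, 8 passed as higher in numbers 3 and 4 and none as lower (median -0.89). The ALK1 receptor gene acvrl1 measured 481, 478, 550 and 333 CPM in numbers 1 and 2 and 1102, 894, 1263 and 1278 CPM in numbers 3 and 4 (log2 -1.31, SE 0.18, edgeR adjusted p = 0.00802). Its target ID1 measured 332, 377, 461 and 369 against 723, 1157, 897 and 1166 CPM (log2 -1.33, SE 0.19, edgeR adjusted p = 0.00802). The signal transducer gene smad9 (log2 -1.09) and the inhibitors SMAD6 (ENSDARG00000053209, -1.18) and BAMBI (ENSDARG00000055381, -1.04) passed too. Of the 26 genes 5 lay above 0. The count was 2 of 26 without mutant 1, mutant 4 and sibling 4. The list's median was near that of the pan-endothelial list (-0.97), and the part of endothelial transcripts in these values was not tested.

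A further list, again drawn up after values had been seen, held 24 genes studied in the vessels of the blood-brain barrier, most of them transporters. On it 9 genes passed as higher in numbers 3 and 4 and none as lower (median -0.81). Of the 9, 5 encode transporters (abcg2a, slco1d1, SLC16A1, ABCB4 and SLCO1C1). The others were the tight junction gene CLDN5 (ENSDARG00000014059, log2 -1.07), the transcription factor gene foxf2a (-1.33), and plvapb and plvapa, which are no transporters and mark vessels without a barrier. CLDN5, plvapb and plvapa also stood among the 29 pan-endothelial calls. The count was 3 of 24 without mutant 1, mutant 4 and sibling 4. The efflux pump gene abcg2a measured 450, 552, 547 and 555 CPM in numbers 1 and 2 and 1138, 1664, 1269 and 1602 CPM in numbers 3 and 4 (log2 -1.42, SE 0.15, edgeR adjusted p = 0.00202). The organic anion transporter gene slco1d1 stood at 187 to 288 against 402 to 1072 CPM (log2 -1.44, SE 0.22). The monocarboxylate transporter gene SLC16A1 (ENSDARG00000016963) stood at 59 to 91.8 against 158 to 312 CPM (log2 -1.6, SE 0.23). SLC16A7, of the same family, was among the 15 largest differences, at 26 to 82.3 against 107 to 269 CPM (log2 -1.93, SE 0.34). The chemokine gene cxcl12b measured 137, 143, 415 and 220 against 736, 681, 1152 and 1014 CPM (log2 -2.0, SE 0.35, edgeR adjusted p = 0.0181), and mutant 2 was the highest of its side. LPL (ENSDARG00000087697), a lipase gene of the capillary wall, stood at 104 to 324 against 654 to 990 CPM (log2 -1.85, SE 0.34). The highest levels among the genes of this direction belonged to fabp4a, a fatty acid binding protein gene (1396 to 2454 against 3060 to 4721 CPM), RGCC (937 to 1458 against 2554 to 4738 CPM), plvapb, CFL1, which encodes the actin-severing protein cofilin (1038 to 1561 against 2255 to 2471 CPM), and the phosphatase gene DUSP1 (1029 to 1524 against 1554 to 2708 CPM).

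**Figure D4:**
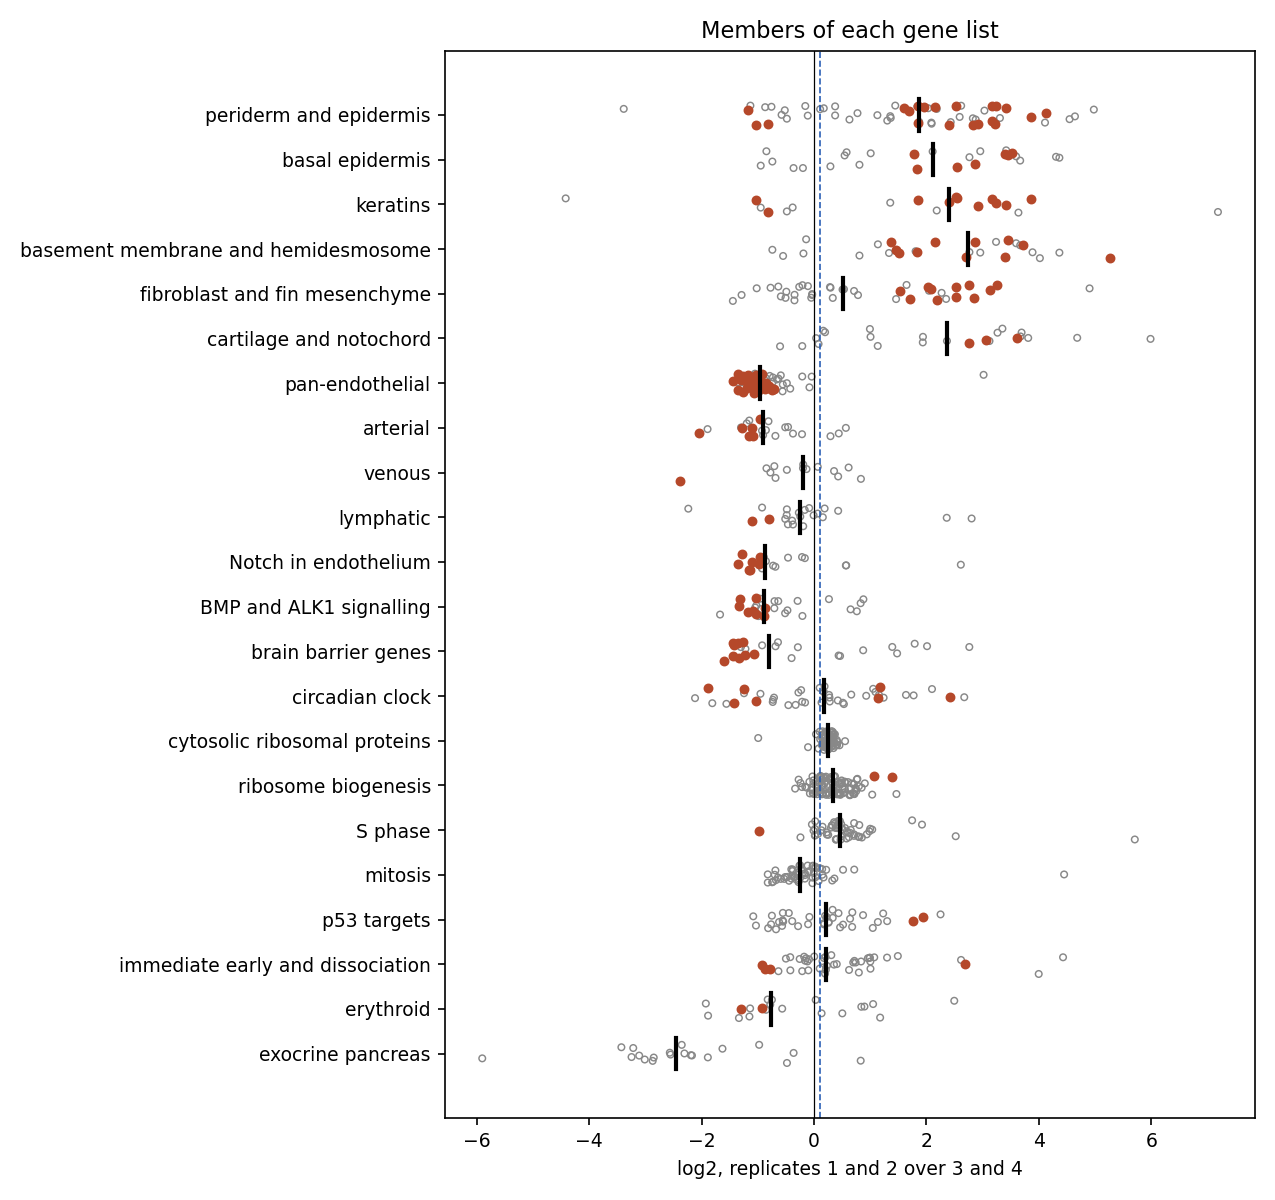
Log2 difference between the sides, numbers 1 and 2 over 3 and 4, for each tested member of 22 gene lists. Filled points passed the edgeR threshold, black bars are list medians and the dashed line is the median of all genes tested, 0.11. Skin and matrix lists spread widely to the right with medians up to 2.73, and the pan-endothelial list is narrow at -0.97.

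On lists of ribosome and cell cycle genes few genes passed. Over all tested genes 520 of 22210 passed (2.34%), and among the 6414 with a mean of at least 20 CPM 3.06% passed as higher and 4.26% as lower. At that level 0 of 78 ribosomal protein, 2 of 86 ribosome biogenesis, 1 of 39 S phase and 0 of 33 mitosis genes passed. Whether these lists differ from those shares was not tested. Of 79 cytosolic ribosomal protein genes none passed in edgeR or in DESeq2, with a median of 0.24 and 77 of 79 above 0. The summed level was 40440 to 63150 CPM in numbers 1 and 2 and 32580 to 58890 CPM in numbers 3 and 4, with mutants 1 and 4 the lowest of their sides. Ribosome biogenesis genes, which include DDX21, had a median of 0.33, and 2 of 98 passed, both higher in numbers 1 and 2. These were NOC2L (54 to 102 against 16.7 to 35 CPM, log2 1.39, SE 0.29) and RRP12 (69.4 to 123 against 38.9 to 53.6 CPM, log2 1.06, SE 0.23), factors of ribosomal subunit assembly. The median of the S phase list was 0.46 (53 of 57 above 0), but 1 of its genes passed, DUT, which removes dUTP before DNA synthesis, and it was higher in numbers 3 and 4 (log2 -0.98, SE 0.20). No gene of the mitosis list passed (median -0.24, 54 tested). DESeq2 called 9 ribosome biogenesis genes, 7 S phase genes and 1 mitosis gene as higher in numbers 1 and 2, and 1 S phase gene as lower. Over all 22210 tested genes it called 952 as higher and 631 as lower. No gene of these 4 lists passed in edgeR without mutant 1, mutant 4 and sibling 4.

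Clock genes split in both directions. On a list of 42, drawn up after values had been seen, 3 passed as higher in numbers 1 and 2 and 4 as higher in numbers 3 and 4, and the median was 0.17. PER2, a light-induced clock repressor gene in zebrafish, measured 171, 131, 162 and 152 CPM in numbers 1 and 2 and 45.1, 63.9, 91.6 and 78.8 CPM in numbers 3 and 4 (log2 1.14, SE 0.23, edgeR adjusted p = 0.0353). The cryptochrome gene cry-dash measured 168, 183, 202 and 174 against 66.8, 82.8, 64.1 and 113 CPM (log2 1.18, SE 0.20, edgeR adjusted p = 0.015). NR1D1, a repressor of the loop, measured 55.7, 54.1, 62.5 and 84.7 against 130, 133, 137 and 128 CPM (log2 -1.04, SE 0.19, edgeR adjusted p = 0.0214). None of these 3 overlapped between the sides. Also higher in numbers 3 and 4 were dbpb (log2 -1.24), cipca (-1.43) and cry3b (-1.89). Without mutant 1, mutant 4 and sibling 4 the list counted 3 higher and none lower. The labels give no time of day for a sort, and the part of the skin and vessel transcripts in these values was not tested.

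Among 44 immediate early and dissociation genes, which respond within minutes to stress or handling, 1 passed as higher and 3 as lower in numbers 1 and 2 (median 0.22). Over all tested genes 1.1% passed as higher and 1.24% as lower. FOSL1, an AP-1 factor gene, measured 145, 79.4, 137 and 117 CPM in numbers 1 and 2 and 21.7, 10.7, 23 and 19.1 CPM in numbers 3 and 4 (log2 2.69, SE 0.24, edgeR adjusted p = 0.0016). The flow-responsive factor gene klf2a (log2 -0.93, SE 0.16), the NF-kappaB inhibitor gene nfkbiab (-0.87, SE 0.16) and DUSP1 (-0.78, SE 0.15) were higher in numbers 3 and 4. Of 38 p53 target genes 2 passed, both higher in numbers 1 and 2. XPC, a DNA damage sensor gene, stood at 73.1 to 117 against 18.9 to 44.4 CPM (log2 1.76, SE 0.29), and the polo-like kinase gene PLK3 at 130 to 614 against 39.4 to 95.5 CPM (log2 1.93, SE 0.38). The p53 list did not move as 1. Of its 38 genes 22 lay above 0 (median 0.21), 4 were without overlap and higher, and 5 were without overlap and lower. BTG1 was among the latter (log2 -0.68, SE 0.15, edgeR adjusted p = 0.0501). DESeq2 called 5 of the 38 as higher and 4 as lower. Of 20 erythroid genes 2 passed as higher in numbers 3 and 4 (median -0.77), the carbonic anhydrase gene cahz and RHAG, and the list's summed level was 642 to 1188 CPM against 1344 to 2445 CPM. Exocrine pancreas genes had the most negative median, -2.46, with none of 20 passed. Sibling 4 alone held 58280 CPM of these digestive enzyme transcripts, against 118 to 1353 CPM in the others, and without it the median was -0.22. Without mutant 1, mutant 4 and sibling 4 the immediate early list counted 2 higher and none lower, the p53 list 1 higher, and the erythroid list none. The pancreas list again had no call, and its median turned sign to 0.91.

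Whether the mutant minus sibling difference depended on the side was asked with the interaction of genotype and side, which leaves 2 libraries in each combination. No gene of 22210 passed in edgeR with the filter on low counts (0%), the smallest adjusted p was 0.44, and 998 had an unadjusted p under 0.05. With the replicate number as a fixed replicate block none passed either, 2 passed without the filter, and DESeq2 called 45 in one direction and 98 in the other. The 3 genes with the smallest p were CPZ, RASSF10 and bub1. Each was at 0 in 2 libraries of numbers 3 and 4, so that no fold is given. CPZ, a carboxypeptidase gene, measured 7.69 and 9.51 CPM in mutants 3 and 4 and 0 in siblings 3 and 4. RASSF10 was at 0 in mutants 3 and 4, at 11.2 and 8.68 CPM in siblings 3 and 4. The spindle checkpoint kinase gene bub1 was at 0 in siblings 3 and 4 and near 7 CPM in mutants 3 and 4.

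With the side in the fit, 2 genes of 22210 passed between mutants and siblings (0.009%), both higher in mutants. One of them was CCNG1 (ENSDARG00000076667), the cyclin G1 gene, whose product acts in the cell cycle. It measured 806, 792, 556 and 558 CPM in mutants 1 to 4 and 192, 293, 164 and 107 CPM in siblings 1 to 4. The lowest mutant lay above the highest sibling (log2 1.88, SE 0.20, edgeR adjusted p = 0.0335). Between the sides CCNG1 differed by 0.68 (SE 0.20, edgeR adjusted p = 0.138), and mutants 1 and 2 lay above mutants 3 and 4.

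The call depended on the design. With genotype as the only term CCNG1 had a log2 difference of 1.84 and an edgeR adjusted p of 0.421, and with a fixed replicate block in place of the side 1.91 and 0.134. Without any 1 library it did not pass (edgeR adjusted p 0.0679 to 0.161), at log2 differences of 1.74 to 2.05. DESeq2 called 55 genes as higher and 126 as lower in mutants, CCNG1 among them. In the same libraries krt4 and epcam were higher in the mutant of each number, though neither passed between mutants and siblings. The part of these skin transcripts in the difference was not tested.

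**Figure D5:**
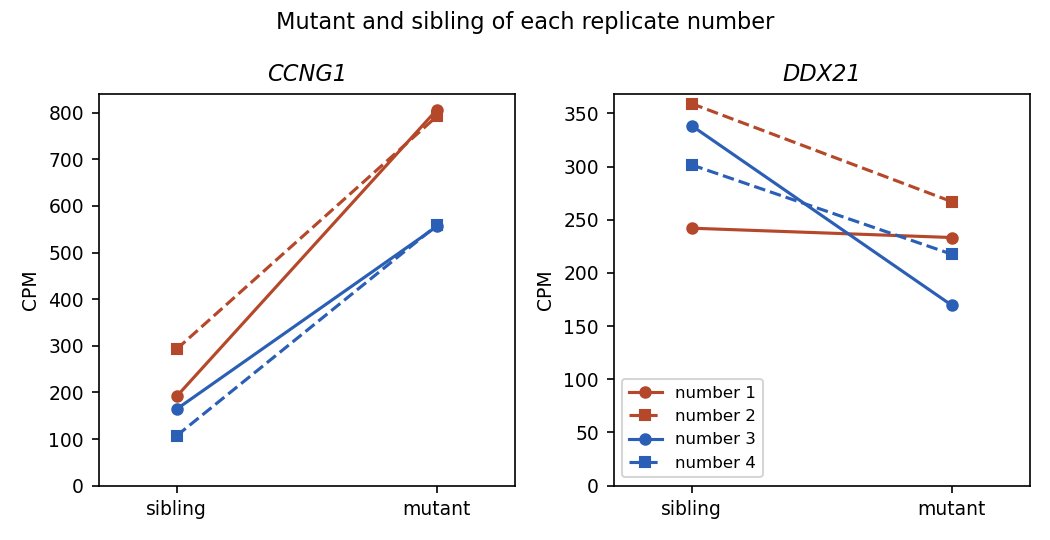
Level in CPM of CCNG1 and DDX21 in the sibling and the mutant of each replicate number, joined by a line; numbers 1 and 2 are red, 3 and 4 blue. For CCNG1 all 4 lines rise steeply, with every mutant above every sibling, and for DDX21 all 4 fall, number 1 by the least.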

How the data were processed

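RNA was sequenced from 8 libraries of cells sorted at 3 dpf, 1 ddx21 mutant and 1 sibling library for each replicate number. The authors deposited raw read counts for 32520 Ensembl genes and a table named as normalised, batch-corrected log2 CPM. All 260160 values of the deposited log2 table equalled log2(CPM + 1) of the deposited counts within 1e-09, and it served only as an alternative. The submitters' processing notes name FastQC, Subread 2.0.0, featureCounts, edgeR and the build GRCz11. Their order, the strand setting and the annotation release are not stated there, so overlapping genes and near-identical copies may share reads. No column belonged to other samples (0).

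Counts were fitted with edgeR 4.0.16 in R 4.3.3 (TMM, filterByExpr with a minimum count of 10 and a minimum total of 15 by side and genotype, robust quasi-likelihood), with genotype and side as terms. Of the genes 22210 were tested, with Benjamini-Hochberg adjustment over all of them at 0.05. Self-tests on simulated counts preceded the fits. Alternatives used DESeq2 1.42.0, limma 3.58.1, RLE scaling, no filter, each library left out, mutant or sibling libraries alone, and counts summed per number. Leaving out the 3 libraries with the fewest genes, number 4 or number 1, and limma-voom without a block were added after seeing the data. Samples with the same number deviated together from their genotype means (correlations 0.195, 0.247, 0.16 and 0.282 for numbers 1 to 4), which includes the difference between the sides. Within the sides the correlation was 0.083 and 0.157. Each number lies in 1 side, so a fixed replicate block cannot be fitted beside the side.

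The sides, the members and the gene lists were chosen with earlier results of these data known. Of 1042 list symbols 969 matched (93.0%). Named were the 15 largest called differences without overlap and at least 20 CPM in each direction, the 5 with the highest level, up to 5 members of a list with the smallest p, and members against a list's median. Genes outside this rule are cell type markers or members of short counts, named after their values were seen. The labels do not say that libraries come from separate clutches or sorts, and the spread behind each p-value may be technical. One gene that passed between mutants and siblings is not reported here.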

Additional observations from a re-analysis of the deposited data

Results flagged for a closer look

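In groups of 4 libraries, a library was singled out where its gap to the nearest other one took up more than 0.83 of the group's range, Dixon's critical value. Of 274 groups examined (the genes named and the summed lists, by side) 14 met it. Chance flags about 1 in 20 groups of independent, normally distributed values. These groups mix genotypes and replicate numbers, and the genes and sums are related. The rate of chance flags is therefore not known here, and the count is not read as beyond chance. Among libraries 3 and 4 the summed exocrine pancreas level was 58280 CPM in sibling 4. Mutant 3 stood above the other 3 for the summed basement membrane and hemidesmosome list (855.5 CPM), krt1-19d (15.2 CPM), cry3b (26.9 CPM) and s100a10b (910 CPM), and below them for FLT4 (232 CPM). Mutant 4 was high for COL12A1 (ENSDARG00000078322, 36.8 CPM) and sibling 3 for ushbp1 (326 CPM) and VIM (ENSDARG00000010008, 90.6 CPM). Among libraries 1 and 2, mutant 1 was low for krt8 (815.5 CPM) and abcg2a (450.2 CPM) and high for SOX3 (253 CPM), and sibling 1 was high for EFNB2 (ENSDARG00000074050, 154 CPM) and jam2a (584 CPM). Whether anything beyond chance sets these libraries apart was not tested.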

How the results depend on the processing

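Between the sides, counts of genes higher and lower in numbers 1 and 2 (245 and 275 as reported) were 952 and 631 in DESeq2, 369 and 293 in limma-voom with a random replicate block, 431 and 332 in limma-voom without it, and 475 and 390 on the deposited log2 values. None passed with counts summed per number, in mutants alone (838 and 583 at an unadjusted p under 0.05) or in siblings alone (1689 and 897). Alternatives chosen after seeing the data gave 244 and 80 without the 3 libraries with the fewest genes, 254 and 84 for numbers 1 and 2 against 3, and 72 and 11 for number 2 against 3 and 4. With each library left out the counts ran from 90 to 212 and from 42 to 254, and 124 of the 520 genes were called every time. The interaction gave 45 and 98 calls in DESeq2, 0 and 2 without a filter, and 0 to 9 and 0 to 27 with a library left out. The genotype term gave 55 and 126 calls in DESeq2, 0 with a fixed replicate block, 0 with genotype alone, and 0 higher and 0 to 1 lower with a library left out. The cause of these differences was not tested.

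In mutants alone list medians became 2.04 for basement membrane, -1.16 for arterial, -0.35 for venous, -1.11 for Notch, -1.07 for barrier and -0.37 for erythroid genes. In siblings alone they became 0.70 for fibroblast, 0.93 for cartilage, -0.65 for arterial, -0.69 for BMP and -4.84 for pancreas genes, and turned sign for clock (-0.02), mitosis (0.23) and p53 targets (-0.031). Without the 3 libraries with the fewest genes the pancreas median turned sign (0.91). With a library left out the ranges were 1.69 to 2.92 for basal epidermis, 2.07 to 2.65 for keratins, 1.96 to 3.14 for basement membrane, 1.66 to 2.61 for cartilage, -1.08 to -0.72 for arterial, -0.36 to -0.17 for venous, -1.05 to -0.82 for barrier, -0.053 to 0.27 for clock, 0.02 to 0.38 for ribosomal protein, -0.43 to 0.04 for mitosis, -0.96 to -0.45 for erythroid and -3.59 to -0.22 for pancreas genes. The side difference turned sign for stab2 with quality weights (-0.015), in siblings alone (-0.024), without sibling 1 (-0.051) or mutant 4 (-0.037), in a range up to 0.206, without the 3 libraries (-0.11), for numbers 1 and 2 against 3 (-0.068) and for number 2 against 3 and 4 (-0.14), for DDX21 in siblings alone (-0.057) and for PDGFRA for number 2 against 3 and 4 (-0.13).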

Other observations

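Several other lists held calls between the sides, where the share over all 22210 tested genes was 2.34%. On lists this short 1 call or none does not set a list apart from that share. Of 47 genes of endothelial adhesion and matrix, 6 passed as higher in numbers 1 and 2 and 4 as higher in numbers 3 and 4, with a median log2 difference of -0.19. The integrin gene ITGAV was higher in numbers 1 and 2 (log2 2.25, edgeR adjusted p = 0.01), and the junction gene jam2a was higher in numbers 3 and 4 (log2 -1.20, edgeR adjusted p = 0.00787). Of 25 neural progenitor and glia genes 2 passed as higher in numbers 1 and 2 and 1 as lower. These were the intermediate filament gene VIM (ENSDARG00000010008, log2 1.70), the transcription factor gene SOX3 (2.33) and a ZIC2 gene (ENSDARG00000015554, -1.14), whose sides overlapped. Of 9 neutrophil genes 1 passed as higher, s100a10b (log2 1.26), and 2 as lower, the granule proteoglycan gene srgn (-1.0) and the cytokine receptor gene il6r (-1.17). TFAP2A, a factor of neural crest and epidermis, was the only 1 of 24 pigment and neural crest genes called (log2 3.11, edgeR adjusted p = 0.0181). RBP4, which encodes the retinol carrier of plasma, was the only 1 of 35 liver and yolk genes called (log2 2.78, edgeR adjusted p = 0.0137). No gene of the ionocyte list (17 tested), the skeletal muscle list (37), the neuron list (34), the intestine list (27) or the lens and eye list (40) passed in edgeR.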
